A study of Mus musculus with 22 samples.

Results

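The 9 B cell identity genes described here, CD79A, CD79B, MS4A1, PAX5, TNFRSF13C, FCER2A, FCMR, CD22 and BLK, are textbook genes of the lineage, taken by name, and each had its row among the 24353 gene symbols of both deposited expression tables. Their levels give the share of B cell RNA within each sorted fraction of the tumours under each treatment, not an amount per tumour. The tumours were EMT6, a mouse mammary carcinoma line, grown in both inguinal fat pads of wild-type BALB/c mice aged 5 to 6 weeks, after 200000 cells per injection. Cells were split into CD45-positive cells, the leukocytes, and CD45-negative cells, mainly tumour and stroma, and bulk RNA was sequenced from each. In the CD45-positive fraction 2 libraries each came from mice given JQ1 alone, JQ1 with an anti-PD-L1 antibody, JQ1 with paclitaxel, all 3 drugs, and vehicle. The CD45-negative fraction held 2 libraries each for JQ1, JQ1 with anti-PD-L1 and vehicle, and 3 each for JQ1 with paclitaxel and the 3 drugs. JQ1, an inhibitor of BET bromodomain proteins, was gavaged daily at 50 mg/kg. Paclitaxel, a microtubule drug, and the antibody clone 10F.9G2 were injected at 10 mg/kg each, 2 times a week. No group received paclitaxel or the antibody without JQ1, so each of these drugs can be read only on top of JQ1.

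B cells sense antigen through a membrane immunoglobulin that signals through the CD79A and CD79B chains. PAX5 is the transcription factor that fixes B cell identity, and most genes of this group are switched on in mature B cells and switched off again when they become plasma cells. In tumours, B cells occur as scattered cells or in lymphoid aggregates beside T cells, and lymph nodes close to a mammary fat pad hold many of them.

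Replicates are separate tumours, but not all are separate animals. The sample codes of the JQ1, JQ1 with anti-PD-L1 and vehicle groups differ only in a final R or L, which is read here as the right and left tumour of 1 mouse each. For these 3 groups mouse and treatment cannot be told apart, and the p-values below measure the spread between tumours. PTPRC, which encodes CD45, checks the separation: it lay between 38.6 and 73.6 FPKM (fragments scaled by transcript length and library size) in the CD45-positive libraries and at 3.21% to 18.6% of that level in the matched CD45-negative cells. Read totals were not given, but the spacing of low values gave relative depths of 0.629 (JQ1 with paclitaxel, replicate 2) to 1.71 (3 drugs, replicate 1) of the average CD45-positive library.

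CD79A, the signalling chain that pairs with CD79B, was the most abundant member. In CD45-positive cells it stood at 109.7 and 102.4 FPKM after JQ1, 14.7 and 11.5 FPKM after JQ1 with anti-PD-L1, 21.3 and 0.443 FPKM after JQ1 with paclitaxel, 18.7 and 33.0 FPKM after the 3 drugs, and 5.13 and 5.55 FPKM after vehicle. Both JQ1 tumours were far above the rest, and replicate 2 of JQ1 with paclitaxel was far below them. CD79B followed at a lower level: 21.3 and 15.4 FPKM after JQ1, 1.96 and 1.24 FPKM with anti-PD-L1 added, 3.02 and 0 FPKM with paclitaxel added, 4.17 and 6.24 FPKM after the 3 drugs, and 2.12 and 2.01 FPKM after vehicle. The vehicle values of CD79B lay within the range of the JQ1 with paclitaxel group and just above the JQ1 with anti-PD-L1 group, so the low groups were not separated from one another.

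MS4A1 encodes CD20, a surface protein of mature B cells. It measured 7.40 and 12.3 FPKM after JQ1, 2.80 and 0.962 FPKM with anti-PD-L1 added, 3.38 and 0.0684 FPKM with paclitaxel added, 1.71 and 7.57 FPKM after the 3 drugs, and 0.233 and 1.14 FPKM after vehicle. It was the 1 member for which the JQ1 tumours overlapped another group, through replicate 2 of the 3-drug group. PAX5 was the lowest member, at 0.812 and 0.425 FPKM after JQ1, 0.0857 and 0 FPKM with paclitaxel added, 0.0906 and 0.156 FPKM after the 3 drugs, and was listed at 0 in all libraries of JQ1 with anti-PD-L1 and vehicle. In units of the smallest spacing between values these levels were 9 and 7 steps after JQ1, 1 and 0 with paclitaxel added, and 2 and 2 after the 3 drugs, so PAX5 rested on very few reads and was below the filter for testing.

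TNFRSF13C, the receptor through which the cytokine BAFF keeps mature B cells alive, stood at 10.4 and 8.43 FPKM after JQ1, 1.65 and 0.348 FPKM with anti-PD-L1 added, 1.65 and 0.0742 FPKM with paclitaxel added, 1.47 and 2.29 FPKM after the 3 drugs, and 0.867 and 0.619 FPKM after vehicle. FCER2A, or CD23, the low-affinity IgE receptor typical of follicular B cells, stood at 5.06 and 4.38 FPKM after JQ1, 0.159 and 0.760 FPKM with anti-PD-L1 added, 1.26 and 0.138 FPKM with paclitaxel added, 0.882 and 1.22 FPKM after the 3 drugs, and 0.242 and 0.212 FPKM after vehicle. For both receptors every JQ1 tumour was above every other tumour, and the remaining tumours lay between 0.0742 and 2.29 FPKM for TNFRSF13C and between 0.138 and 1.26 FPKM for FCER2A. FCMR, the receptor for IgM, also had both JQ1 tumours above the rest, at a higher level: 28.4 and 18.7 FPKM after JQ1, 3.32 and 3.46 FPKM with anti-PD-L1 added, 3.72 and 0 FPKM with paclitaxel added, 5.64 and 5.65 FPKM after the 3 drugs, and 1.04 and 1.45 FPKM after vehicle.

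CD22, an inhibitory co-receptor of the B cell receptor, reached 6.71 and 8.74 FPKM after JQ1, 1.83 and 1.70 FPKM with anti-PD-L1 added, 1.95 and 0.0683 FPKM with paclitaxel added, 2.19 and 2.61 FPKM after the 3 drugs, and 1.23 and 1.49 FPKM after vehicle. BLK, a Src-family kinase of B cells, reached 4.67 and 2.34 FPKM after JQ1, 0.287 and 0.684 FPKM with anti-PD-L1 added, 0.585 and 0 FPKM with paclitaxel added, 1.13 and 0.599 FPKM after the 3 drugs, and 0.191 and 0.688 FPKM after vehicle. Outside the JQ1 group BLK reached 1 FPKM in only 1 library, so it entered the test through the JQ1 tumours. Bulk RNA does not separate fewer B cells from less RNA of these genes per cell.

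**Figure D1:**
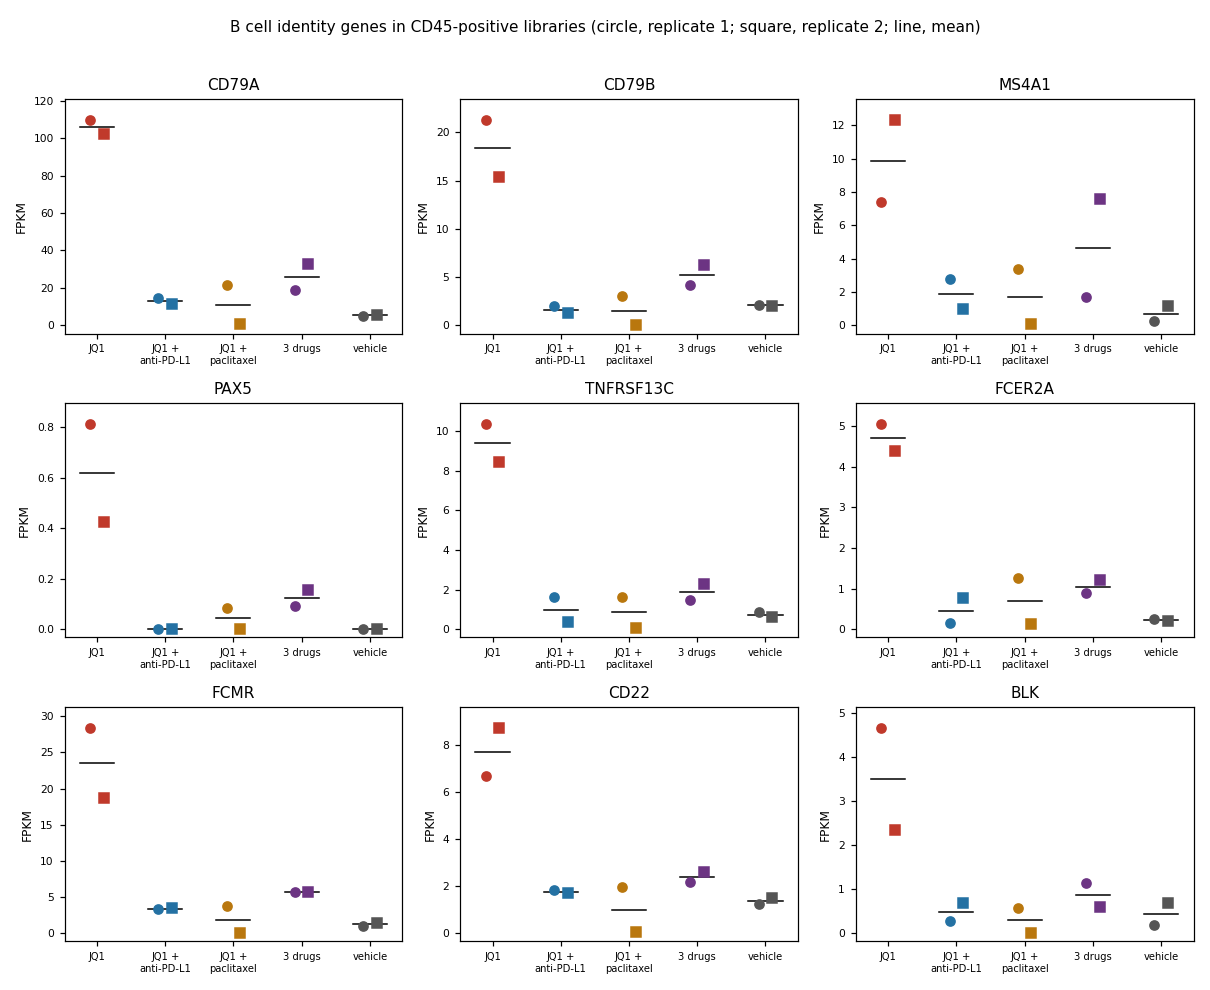
FPKM (vertical axis, linear and scaled per panel) of each of the 9 B cell identity genes in the 10 CD45-positive libraries, by treatment; points are single tumours and horizontal lines are group means. The JQ1 tumours are the highest in 8 of the 9 panels, and replicate 2 of JQ1 with paclitaxel is at or near 0 in all of them.

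Summed over the 9 genes, the level was 194 and 173 FPKM after JQ1, 26.7 and 20.7 FPKM with anti-PD-L1 added, 37.0 and 0.792 FPKM with paclitaxel added, 36.0 and 59.3 FPKM after the 3 drugs, and 11.05 and 13.2 FPKM after vehicle. CD79A was the largest part of the sum in every library. Leaving out replicate 2 of JQ1 with paclitaxel, it made up 42.1% to 59.1%, FCMR 9.43% to 16.7%, CD79B 6.01% to 19.2% and CD22 3.45% to 11.3%. The shares of the low members varied more: 2.11% to 12.8% for MS4A1, 1.68% to 7.85% for TNFRSF13C, 0.596% to 3.68% for FCER2A and 1.01% to 5.23% for BLK. The group mean was highest after JQ1 and second highest after the 3 drugs for 9 of 9 members, and lowest after vehicle for 5 of 9, with CD79B, PAX5, CD22 and BLK as the exceptions. Both JQ1 libraries were above all the other 8 for 8 of 9 members and 7 of the 8 tested, a pattern that 7.13% of the 10340 genes tested had. PAX5 was not tested. BLK entered the test through the JQ1 tumours, so its part in the counts of JQ1 libraries is no support for a difference. The next groups in this order were less clearly apart. Both JQ1 libraries were above both 3-drug libraries for 8 of 9 members and 7 of the 8 tested (18.9% of genes tested), with MS4A1 as the exception. Both 3-drug libraries were above both vehicle libraries for 8 of 9 members and 7 of the 8 tested (18.1% of genes tested), with BLK as the exception. Both JQ1 with anti-PD-L1 libraries were above both vehicle libraries for 3 of 9 members and 3 of the 8 tested, namely CD79A, FCMR and CD22, beside 14.8% of genes tested. The JQ1 with paclitaxel group spanned the vehicle values for most members because its 2 tumours differed so widely.

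Replicate 2 of JQ1 with paclitaxel stood apart from all other leukocyte libraries in these genes. It was the lowest library for 8 of 9 members, the 8 that were tested, a pattern that 22.2% of the genes tested had. In it 4 members, CD79B, PAX5, FCMR and BLK, were listed at 0. Its PTPRC level of 40.1 FPKM was close to the 38.6 FPKM of replicate 1 of the same group. It was also the shallowest CD45-positive library, at a relative depth of 0.629, and the part of depth in these values was not tested.

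JQ1 against vehicle was the comparison in which members passed the test. Mean FPKM of the 8 members other than PAX5 was 5.69 to 20.8 times as high in the JQ1 tumours as in the vehicle tumours, with a median ratio of 13.5. On the log2(FPKM + 1) scale, which understates changes of low genes, limma called 3 of the 8 members tested at a Benjamini-Hochberg adjusted p under 0.05, all higher after JQ1, where 1.04% of the 10340 genes tested were called in either direction. FCMR rose by 3.43 ± 0.59 (SE, n = 2 each, adjusted p = 0.0352), TNFRSF13C by 2.57 ± 0.45 (adjusted p = 0.0377) and FCER2A by 2.22 ± 0.34 (adjusted p = 0.0258). The other 5 did not pass: the log2 difference was 4.08 ± 0.97 for CD79A (adjusted p = 0.0814), 2.64 ± 0.55 for CD79B (adjusted p = 0.0598), 1.88 ± 0.41 for CD22 (adjusted p = 0.0714), 1.62 ± 0.35 for BLK (adjusted p = 0.0692) and 2.70 ± 0.73 for MS4A1 (adjusted p = 0.104). CD79A had the largest difference and also the largest SE, and over the alternatives run its adjusted p ranged from 0.00343 to 0.879. The median difference of the 8 members was 2.61, beside a median of -0.00413 over all genes tested. BLK is 1 of these 8 although it entered the test through the JQ1 tumours.

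The count of 3 depends on single libraries. The share of all genes called in each of these refits is not given here. It was 0 without replicate 1 of JQ1, without either replicate of JQ1 with anti-PD-L1 and without either vehicle replicate, and 6 without either replicate of JQ1 with paclitaxel, when CD79A, CD79B and CD22 joined the 3. With 1 value per mouse code the JQ1 and vehicle groups are 1 animal each, and 0 members were called. The direction was higher after JQ1 for all 8 members in all 23 alternatives run, among them BLK, which entered the test through the JQ1 tumours.

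Against vehicle the combinations gave 0 calls among the 8 members. The median log2 difference was 0.22 for JQ1 with anti-PD-L1 (0.029% of genes tested called, 0 members at an unadjusted p under 0.05), -0.10 for JQ1 with paclitaxel (4.84% called, 0 members unadjusted) and 0.87 for the 3 drugs (0.135% called, 1 member unadjusted). For the 3 drugs all 8 differences were above 0, the largest being CD79A at 2.03 ± 0.97 (adjusted p = 0.596) and FCMR at 1.57 ± 0.59 (adjusted p = 0.508). Averaged over the 4 treated groups the difference from vehicle had a median of 0.87, with 0 calls, 5 members at an unadjusted p under 0.05, and 0.822% of genes called. These comparisons share the vehicle tumours.

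**Figure D2:**
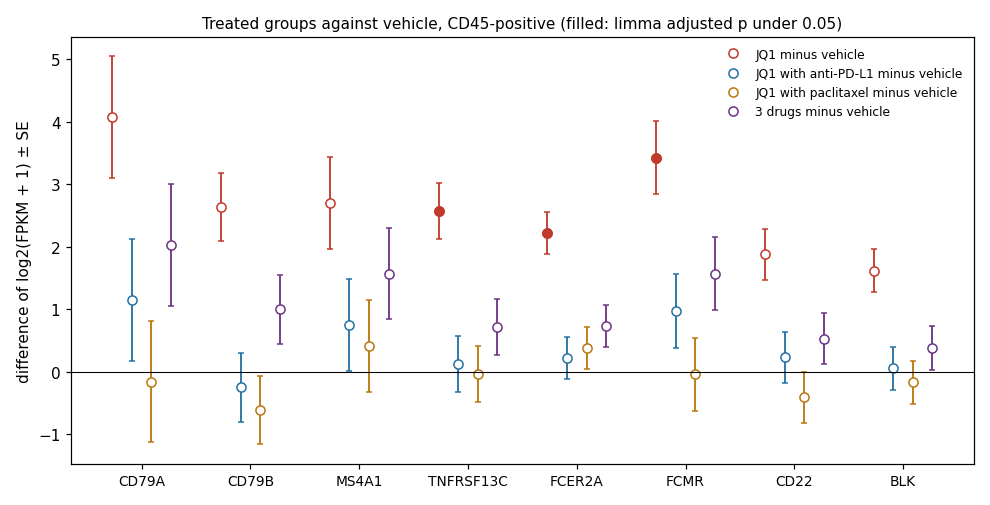
Difference of log2(FPKM + 1) from vehicle (vertical axis) with its SE for the 8 members tested, for JQ1 and the 3 combinations in CD45-positive libraries; filled points passed the limma threshold. Only FCMR, TNFRSF13C and FCER2A after JQ1 are filled, and the combinations lie nearer to 0 than JQ1 for every member.

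That JQ1 passed the test and the combinations did not is no test of a difference between them. Set directly against JQ1 alone, comparisons added after the values were seen, the 8 members had 0 calls in each. BLK, 1 of the 8, entered the test through the JQ1 tumours, so its part in the counts below is no support for a difference. Adding anti-PD-L1 gave a median log2 difference of -2.23 from JQ1 alone (8 of 8 members at an unadjusted p under 0.05, 0% of genes tested called), adding paclitaxel -2.45 (8 of 8 unadjusted, 0% called), and adding both -1.56 (6 of 8 unadjusted, 0.00967% called). The closest to the threshold were CD79B at -3.25 ± 0.55 and FCMR at -3.47 ± 0.59 with paclitaxel added (adjusted p = 0.0931 for both) and FCER2A at -2.00 ± 0.34 with anti-PD-L1 added (adjusted p = 0.0931).

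In the factorial view of the 4 JQ1-treated groups, the average effect of adding anti-PD-L1 had a median of -0.46 over the members (0 called, 2 unadjusted, 0.832% of genes called), and that of adding paclitaxel a median of -0.998 (0 called, 7 unadjusted, 0.0387% called). The interaction, which asks whether the 3 drugs lie above what the single additions would give on the log scale, was positive for all 8 members with a median of 3.16, beside 0.16 over all genes tested. It ran from 2.12 ± 0.49 for BLK to 5.12 ± 1.37 for CD79A. BLK entered the test through the JQ1 tumours and is 1 of the 8 here, so its part in these counts is no support. By limma 0 members and 0% of genes passed the adjusted threshold, while 8 of 8 members and 1070 genes had an unadjusted p under 0.05. For the refits that follow, the share of all genes called is not given here. Without replicate 1 of JQ1 with paclitaxel 4 members passed, and without replicate 2 of that group 0 did.

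Members that moved together were looked at for shared promoter letters. RefSeq promoters (build GRCm38.p6, 250 bases before to 50 after the start) were matched for 6 of the 9 members and searched on both strands for the octamer ATGCAAAT bound by Oct proteins in B cells, the EBF1 core CCCNNGGG and the PU.1 box GAGGAA. The sequences of CD79A, FCMR and CD22 are shown because they hold a match, in capitals and as read on the strand of the gene: TTCCTC, the reverse complement of the PU.1 box, begins 140 bases before the start in CD79A and 36 before it in FCMR, and the EBF1 core begins 48 bases before it in CD22. The windows lie at chr7:24897247-24897546 on the plus strand, chr1:130865527-130865826 on the plus strand and chr7:30878979-30879278 on the minus strand.
CD79A: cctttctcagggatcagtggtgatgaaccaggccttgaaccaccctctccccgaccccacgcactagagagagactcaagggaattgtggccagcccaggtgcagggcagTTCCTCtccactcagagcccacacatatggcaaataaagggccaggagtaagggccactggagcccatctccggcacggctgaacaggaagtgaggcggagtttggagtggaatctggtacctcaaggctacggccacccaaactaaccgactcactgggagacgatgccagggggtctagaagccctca
FCMR: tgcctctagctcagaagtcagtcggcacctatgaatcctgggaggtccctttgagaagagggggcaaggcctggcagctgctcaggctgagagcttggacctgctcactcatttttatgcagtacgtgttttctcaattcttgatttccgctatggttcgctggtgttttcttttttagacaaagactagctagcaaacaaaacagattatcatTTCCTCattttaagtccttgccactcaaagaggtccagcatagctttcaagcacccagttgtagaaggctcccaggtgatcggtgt
CD22: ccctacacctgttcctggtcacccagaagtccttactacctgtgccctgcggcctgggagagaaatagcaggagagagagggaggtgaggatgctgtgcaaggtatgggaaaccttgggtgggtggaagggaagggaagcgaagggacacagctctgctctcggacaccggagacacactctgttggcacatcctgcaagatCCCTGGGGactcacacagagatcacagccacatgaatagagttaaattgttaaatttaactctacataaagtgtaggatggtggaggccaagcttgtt
The PU.1 box was in 28.3% of all 32851 promoters of the table and the EBF1 core in 13.7%, so 2 and 1 of 6 members with a match are descriptions. The octamer, in 1.74% of promoters, was in 0 of the 8 windows of these 6 members, of which FCER2A has 3. FCMR passed the test and the other 2 promoters shown belong to members that did not.

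Other B lineage genes were read from lists chosen with earlier results of these data known. Beside the counts of this and the following lists, 1.04% of the 10340 genes tested were called in either direction for JQ1 against vehicle. Of 8 tested B lineage transcription genes 4 rose after JQ1 against vehicle and 0 fell, and all 8 differences were above 0. EBF1, the factor that specifies the lineage together with PAX5, stood at 3.004 and 2.81 FPKM after JQ1 and 0.225 and 0.203 FPKM after vehicle. Its log2 difference was 1.69 ± 0.23 (adjusted p = 0.0191). Outside the JQ1 group EBF1 reached 1 FPKM only in replicate 1 of JQ1 with paclitaxel, at 1.35 FPKM. It thus entered the test through the JQ1 tumours, and its place among the 4 is no support for a difference. FOXO1 differed by 1.71 (adjusted p = 0.0307), SPIB, an Ets factor of B cells and plasmacytoid dendritic cells, by 1.85 (adjusted p = 0.0459) and IKZF3, or Aiolos, by 1.62 (adjusted p = 0.0305). Of 8 tested homing genes 3 rose and 0 fell, and 7 differences were above 0. The exception was CXCL13, the chemokine ligand of CXCR5, at 1.13 and 0 FPKM after JQ1 and 5.84 and 2.38 FPKM after vehicle (log2 difference -1.72, adjusted p = 0.119). CXCR5, the chemokine receptor that guides B cells into follicles, stood at 9.97 and 6.78 FPKM after JQ1 and 0.360 and 0.556 FPKM after vehicle, a difference of 2.67 ± 0.41 (adjusted p = 0.0270). LTB, lymphotoxin beta, differed by 2.16 (adjusted p = 0.0270) and CCR7, the receptor for lymph node chemokines that naive T cells and dendritic cells also carry, by 2.76 (adjusted p = 0.0401). Bulk RNA does not show which leukocytes made the genes of these lists, and the T cell genes given below were also higher after JQ1.

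In the list of B cell receptor signalling genes 0 of 15 tested genes rose or fell, where 1.04% of all genes tested were called. The list had a median difference of 0.19, with 9 differences above 0 and 6 genes at an unadjusted limma p under 0.05. Its most abundant genes were FCGR2B, the inhibitory IgG receptor that macrophages also carry, with a difference of -0.62 (adjusted p = 0.198), and PTPN6, a phosphatase of leukocytes in general, with -0.36 (adjusted p = 0.327). Its other genes were spread out: BANK1, an adaptor of B cell receptor signalling, was at 1.87 (adjusted p = 0.0598), SIGLECG at 1.47 (adjusted p = 0.0907), CD37 at 0.63 (adjusted p = 0.343), BLNK at -0.13 (adjusted p = 0.919) and CD72 at -0.45 (adjusted p = 0.670). In the list of other B cell surface genes 0 of 9 passed and 8 of 9 differences were above 0. The median difference was 1.17, and 5 of the 9 had an unadjusted limma p under 0.05. Among these 5 was RALGPS2, at 1.26 (adjusted p = 0.0699), which passed the filter through the JQ1 tumours. The most abundant genes of the list, CD38 and CD24A, both also made by other cells, differed by -0.01 (adjusted p = 0.996) and 0.39 (adjusted p = 0.687).

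Of the ligand and receptor genes of the BAFF and APRIL system, 4 were tested, 0 rose and 1 fell, and 1 of the 4 differences was above 0. TNFSF13, which encodes APRIL and is made largely by myeloid cells, stood at 0.920 and 1.96 FPKM after JQ1 and 8.49 and 7.59 FPKM after vehicle, a log2 difference of -1.92 ± 0.32 (adjusted p = 0.0336). It also fell with paclitaxel added, by 1.79 against vehicle (adjusted p = 0.0210), and by 1.48 in the mean of all treated groups (adjusted p = 0.0379). TNFSF13B, which encodes BAFF, the ligand of TNFRSF13C, varied widely within the JQ1 group, at 8.07 and 0.663 FPKM, and was 5.45 and 2.96 FPKM after vehicle (log2 difference -0.38, adjusted p = 0.828). TNFRSF13B, a receptor gene of this list, lay the other way from the members. It was at 2.07 and 3.22 FPKM after JQ1 and 5.11 and 6.42 FPKM after vehicle (log2 difference -0.90, adjusted p = 0.128). CD40 had the difference above 0, at 0.30 (adjusted p = 0.848). The plasma cell and germinal centre list had 1 of 8 tested genes rising, IRF4, by 1.49 (adjusted p = 0.0268), a factor also used by activated T cells and dendritic cells. Its most abundant gene XBP1 differed by -0.28 (adjusted p = 0.538). Of the precursor list only IL7R, which T cells also carry, was tested (difference -0.50, adjusted p = 0.814), DNTT did not exceed 0.272 FPKM, and RAG1, VPREB1 and IGLL1 were at 0 in all 10 libraries. Immunoglobulin constant-region genes were not analysed here.

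Among the 10 genes whose log2(FPKM + 1) most resembled the members' mean standardised level over the 10 CD45-positive libraries were TBC1D10C (Pearson r = 0.980), PTPRCAP (0.977), SRPK3 (0.973), POU2AF1 (0.967), FAM65B (0.963), SIGLECG (0.963), SPIB (0.963), RALGPS2 (0.962) and ACAP1 (0.961). PTPRCAP, a partner of CD45 in lymphocytes, stood at 15.4 and 16.6 FPKM after JQ1 and 2.75 and 2.15 FPKM after vehicle. Without the 2 JQ1 tumours these r values were 0.861 to 0.960 over 8 libraries. RALGPS2 did not exceed 0.958 FPKM outside the JQ1 group, so it passed the filter through the JQ1 tumours. Among the members themselves r ran from 0.715 to 0.979 over 28 pairs, with a median of 0.918, and from 0.429 to 0.973 with a median of 0.790 without the JQ1 tumours. The lowest r were those of UQCRQ (-0.876), NAA38 (-0.862), ITGB1BP1 (-0.849), GTF2H5 (-0.848) and APOO-PS (-0.821), and without the JQ1 tumours that of GTF2H5 was -0.244. These r are descriptions over 10 tumours, some of which share a mouse code, in libraries of unequal depth.

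T cell genes moved with the B cell genes in part. The summed level of 15 T cell genes was 266 and 67.3 FPKM after JQ1, 21.3 and 21.5 FPKM with anti-PD-L1 added, 38.3 and 10.6 FPKM with paclitaxel added, 74.8 and 27.9 FPKM after the 3 drugs, and 29.8 and 21.8 FPKM after vehicle. Both JQ1 tumours were above both vehicle tumours, but replicate 2 of JQ1 was below replicate 1 of the 3 drugs, and the JQ1 tumours were unlike each other while their B cell sums of 194 and 173 FPKM were close. Of the 15 T cell genes 1 rose after JQ1 against vehicle, THY1, where 1.04% of all genes tested were called. All 15 differences were above 0, with a median of 1.76, and 12 had an unadjusted limma p under 0.05. THY1 was also called for JQ1 with paclitaxel against vehicle, by 1.12 (adjusted p = 0.0264), where 4.84% of all genes tested were called. The median of the 15 T cell genes was -0.09 there. The ratio of the B cell sum to the T cell sum was 0.732 and 2.57 after JQ1, 1.26 and 0.960 with anti-PD-L1 added, 0.967 and 0.0746 with paclitaxel added, 0.481 and 2.13 after the 3 drugs, and 0.371 and 0.603 after vehicle, so both JQ1 tumours were above both vehicle tumours and the combination groups overlapped JQ1.

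**Figure D3:**
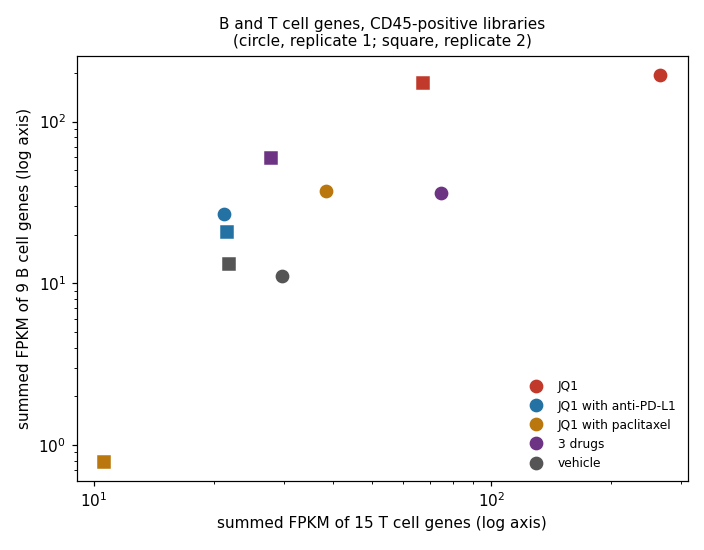
Summed FPKM of the 9 B cell genes (vertical log axis) against summed FPKM of 15 T cell genes (horizontal log axis) in the 10 CD45-positive libraries, coloured by treatment. The JQ1 tumours have B cell sums of 194 and 173 FPKM at T cell sums of 266 and 67.3 FPKM, and replicate 2 of JQ1 with paclitaxel lies alone at the bottom.

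Naive T cells and lymph node stroma were read as the other cells that would come with lymphoid tissue. The summed level of 9 naive and central T cell genes was 443 and 231 FPKM after JQ1 and 137 and 90.9 FPKM after vehicle. Of 8 tested 2 rose, TCF7 by 2.58 (adjusted p = 0.0245) and CCR7, beside 1.04% of all genes tested that were called. LEF1 was at 23.2 and 4.17 FPKM after JQ1 and 0.618 and 0.132 FPKM after vehicle. Lymph node genes were uneven. GLYCAM1, a ligand of high endothelial venules, was at 4.37 and 0 FPKM after JQ1, 0 and 1.27 FPKM with anti-PD-L1 added, 2.26 and 0 FPKM with paclitaxel added, 1.201 and 0.519 FPKM after the 3 drugs, and 0 in both vehicle libraries. CCL21A, the chemokine of lymph node stroma, was at 1.92 and 0 FPKM after JQ1 and 0.324 and 0 FPKM after vehicle. Lymph node stroma is CD45-negative, and its genes were read in that fraction too. There GLYCAM1 was at 0.323 and 0 FPKM after JQ1 and 0 in both vehicle libraries. CCL21A was at 0.108 and 0 FPKM after JQ1 and 0.262 and 0.0635 FPKM after vehicle. In the CD45-positive fraction the whole list of 9 lymph node genes summed to 10.6 and 4.37 FPKM after JQ1 and 48.8 and 65.8 FPKM after vehicle. Of 3 tested 1 fell, FCRLS (log2 difference -3.56), a macrophage gene misplaced in the list. The other 8 genes summed to 7.84 and 0.0565 FPKM after JQ1, 0.919 and 3.19 FPKM with anti-PD-L1 added, 4.39 and 0.386 FPKM with paclitaxel added, 3.82 and 1.57 FPKM after the 3 drugs, and 6.17 and 2.38 FPKM after vehicle. The JQ1 tumours spanned the vehicle tumours in this sum, but the vehicle sums were almost all CXCL13. It gave 5.84 and 2.38 FPKM of them, and 1.13 and 0 FPKM of the JQ1 sums. In replicate 1, 2 of the 8 genes were at 0 after JQ1 and 6 after vehicle. In replicate 2 of JQ1 7 of the 8 genes were at 0, as in replicate 2 of vehicle. Pan-leukocyte genes had 0 of 12 called and a median difference of -0.08. The part of lymphoid tissue in the B cell values of either JQ1 tumour was not tested.

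In the CD45-negative fraction the 9 genes were low but not absent. They summed to 6.61 and 8.72 FPKM after JQ1, 4.50 and 1.04 FPKM with anti-PD-L1 added, 2.48, 1.09 and 0.213 FPKM with paclitaxel added, 1.99, 21.6 and 0.211 FPKM after the 3 drugs, and 0.848 and 1.60 FPKM after vehicle. The 2 fractions were normalised in separate tables, so ratios between them are set across tables. In the 10 tumours with both fractions the CD45-negative sum was 3.40% to 36.5% of the CD45-positive sum, with a median of 7.20%. PTPRC gave 3.21% to 18.6% (median 6.74%) and 12 pan-leukocyte genes 6.67% to 16.7% (median 9.27%). The share of the B cell genes was above that of the pan-leukocyte genes in 5 of the 10 tumours. Among these, the tumour that is replicate 2 of JQ1 with paclitaxel in the CD45-positive and replicate 3 in the CD45-negative fraction had 26.8%, from sums of only 0.213 FPKM in its CD45-negative and 0.792 FPKM in its CD45-positive library.

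Replicate 2 of the 3-drug group was the exception. Its CD45-negative library held CD79A at 10.9 FPKM, against 33.0 FPKM in its own leukocytes, FCMR at 3.75 FPKM and TNFRSF13C at 1.72 FPKM, and it was the 1 CD45-negative library of 12 in which PAX5 was above 0. Its B cell sum was 36.5% of that of its leukocytes and its T cell sum 105%, where pan-leukocyte genes gave 16.7% and PTPRC 18.6%. CCR7 was 14.2 FPKM there, against 0.694 to 2.75 FPKM in the other 11, and LEF1 3.34 FPKM, against 0 to 0.216 FPKM. Of the lymph node genes, GLYCAM1 was at 0.352 FPKM there. It was close to this in replicate 1 of JQ1 (0.323 FPKM) and of JQ1 with paclitaxel (0.245 FPKM), and 9 of the 12 libraries were at 0. CCL21A was at 0.0294 FPKM, MADCAM1 was at 0, and CHST4 was at 0 in all 12. The shares of B and T cell genes in this tumour were thus above those of its general leukocyte genes, and their source was not tested.

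**Figure D4:**
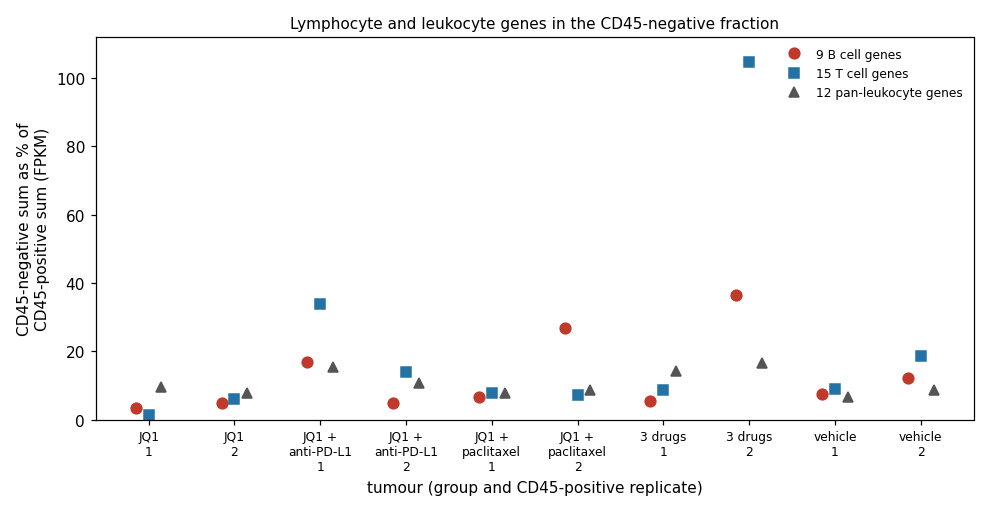
Summed FPKM in the CD45-negative library as a percentage of that in the matched leukocyte library (vertical axis) for the 9 B cell genes, 15 T cell genes and 12 pan-leukocyte genes, over 10 tumours by treatment. Replicate 2 of the 3-drug group has 36.5% for B cell and 105% for T cell genes, while pan-leukocyte genes stay between 6.67% and 16.7% in all tumours.

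In the CD45-negative fraction 3 members passed the filter, CD79A, CD79B and FCMR, and 0 of 3 were called in any of 8 comparisons. Outside the JQ1 group CD79B and FCMR each reached 1 FPKM in 1 library, so both passed the filter through the JQ1 libraries. JQ1 against vehicle gave log2 differences of 1.50 ± 0.87 for CD79A (adjusted p = 0.257), 0.89 ± 0.39 for CD79B (adjusted p = 0.138) and 1.02 ± 0.50 for FCMR (adjusted p = 0.185), with 1 member at an unadjusted p under 0.05 and 14.8% of the 10780 genes tested called. For comparison, genes called by limma made up 0.25% for JQ1 with anti-PD-L1, 17.6% for JQ1 with paclitaxel and 1.63% for the 3 drugs against vehicle, and 7.37% for the mean of the treated groups. They made up 25% for adding anti-PD-L1, 3.56% for adding paclitaxel and 0.00928% for their interaction. Of these 7 comparisons the interaction alone had a member, FCMR, at an unadjusted p under 0.05 (1.80 ± 0.65, adjusted p = 0.588).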

How the data were processed

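Bulk RNA from CD45-positive (10) and CD45-negative (12) libraries of EMT6 tumours was analysed, grouped by the treatment in the labels. Libraries were made with a low-input SMARTer kit, per the labels' protocols. Reads were aligned with STAR 2.5.1b to mm9, per the submitters' processing notes, and how gene values were made from them is not given in the sources used here. For each fraction the authors deposited 1 table, whose values were taken as FPKM from their decimals and column sums, although the tables' names speak of counts. Read totals are unknown. Relative depth was estimated from the steps between low values. The check used genes low in every library, 2959 in the CD45-positive and 2691 in the CD45-negative table. Each depth-corrected value was divided by the gene's lowest value above 0, which was itself left out. Of these ratios 75.4% and 74.0% were whole within 0.05, against 11.0% and 10.9% with random factors. Small steps cover counting error only.

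A gene was tested where 2 or more libraries of the fraction reached 1 FPKM. The test was limma 3.58.1 (R 4.3.3) on log2(FPKM + 1), with trended variance, all 5 groups in 1 fit (5 residual degrees of freedom in the CD45-positive and 7 in the CD45-negative fraction), two-sided, Benjamini-Hochberg adjustment over all genes tested and a threshold of 0.05. For 2 against 2 tumours an exact permutation test cannot go below p = 0.333 and was not used. The code was tested on simulated data. All 9 members were named. From the other B lineage lists genes past the threshold were named (at most 6 a list). Where none passed, the 2 most abundant were named. Further named were genes among the 10 most alike and the 5 least alike by r, of which 1 is not reported here. BANK1, LEF1 and other genes outside this rule were chosen after their values were seen. The members and lists were chosen with earlier results of these data known. Alternatives covered the pseudocount, filter, scaling, variance model, covariate, mouse code and leaving out each library. Figures were drawn with matplotlib 3.10.9.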

Additional observations from a re-analysis of the deposited data

How the results depend on the processing

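The difference between JQ1 and vehicle in CD45-positive cells was above 0 for all 8 tested members in all 23 alternatives, while the number called at an adjusted p under 0.05, 3 as reported, depended on the setting. It was 0 at a pseudocount of 0.1, 1 at a pseudocount of 0.5, 0 with no filter, 0 with 1 value per mouse code and 0 with relative depth as a covariate, and leaving out 1 library at a time gave 0 to 6. It was 3 under 3 scalings, under a filter on the mean and without the variance trend, 2 with array weights and 4 with the compared groups alone. FCMR was called in 12 of the 23, FCER2A in 12, TNFRSF13C in 10, CD79A in 4, CD79B in 3, CD22 in 2, BLK in 1 and MS4A1 in 0. BLK entered the test through the JQ1 tumours. The share of all genes called under each alternative is not given here. The counts in this section thus do not show whether members or genes in general gained or lost calls.

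The other comparisons had 0 calls as reported. Leaving out 1 library at a time gave 0 to 1 for JQ1 with paclitaxel against vehicle, 0 to 2 for the mean of the treated groups, 0 to 2 for adding paclitaxel and 0 to 4 for the interaction. It gave 0 to 3 for JQ1 with anti-PD-L1 and 0 to 6 for JQ1 with paclitaxel against JQ1 alone, the highest counts coming without replicate 1 of JQ1 with paclitaxel. Leaving out JQ1 replicate 1 and JQ1 with paclitaxel replicate 2 together, chosen after seeing the data, gave 2 for the mean of the treated groups and 2 for JQ1 against vehicle. Fitting only the groups compared gave 1 for JQ1 with anti-PD-L1 against JQ1 alone. In CD45-negative cells JQ1 against vehicle had 3 of 3 called when only the groups compared were fitted and 0 to 1 on leaving out 1 library, and adding paclitaxel 0 to 1, each 1 without replicate 2 of the 3-drug group. CD79B and FCMR passed the filter there through the JQ1 libraries, so these counts are no support for a difference. Except where fewer samples or genes entered, the cause was not tested. No paired analysis was possible because replicate numbers were given in accession order and name single tumours that differ in mouse between groups.

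Limits are few tumours per group, 1 mouse code behind each of the JQ1, JQ1 with anti-PD-L1 and vehicle groups, and unknown read totals. PAX5 and most members outside the JQ1 group are near the low end of what these libraries record.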
